A study of Homo sapiens with 6 samples.

Results

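The clade B serpins are the intracellular branch of the serpin family, and 10 of them, SERPINB1, SERPINB2, SERPINB3, SERPINB4, SERPINB5, SERPINB6, SERPINB7, SERPINB8, SERPINB9 and SERPINB13, were followed here among the 17860 genes of the deposited table. They were chosen by their family name, and SERPINB7 was selected on its measured rise in these same samples, so its values are given as a description without a test. All 10 had a value in all 6 samples and all 10 passed the filter on low counts. RNA-Seq was performed on HCC1806/HM3 cells, which were obtained from the human breast cancer line HCC1806 by passage through mice and selection for spread to the liver. The 3 shNC samples (genotype labelled Control) carried a control shRNA, and the 3 shMSLN samples (genotype labelled MSLN knockdown) carried an shRNA against MSLN, the gene of the cell surface protein mesothelin. Both arms were delivered by lentivirus and selected with G418, so vector and selection were shared. The labels name neither the MSLN target sequence nor whether all 3 shMSLN samples carried the same shRNA, and no rescue arm was analysed here. The labels do not say that samples came from separate cultures, so the p-values measure only the spread between these samples.

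Serpins trap proteases by offering an exposed reactive loop as bait, which the enzyme cuts and which then locks the enzyme into a dead complex. Clade B members lack a classical signal peptide and mostly act inside the cell, where they guard the cytoplasm against lysosomal and granule proteases. Several of them are expressed in squamous epithelium, among them maspin (SERPINB5), the squamous cell carcinoma antigens (SERPINB3 and SERPINB4), headpin (SERPINB13) and megsin (SERPINB7).

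In the GENCODE 29 annotation of GRCh38, the members fall in 2 clusters. SERPINB5, SERPINB13, SERPINB4, SERPINB3, SERPINB7, SERPINB2 and SERPINB8 lie in that order within 543.0 kb of chromosome 18 (chr18:63476761-64019779), together with SERPINB12, SERPINB11 and SERPINB10, which are not members. SERPINB1, SERPINB9 and SERPINB6 lie within 139.8 kb of chromosome 6 (chr6:2832332-2972165). SERPINB7 itself spans 52.4 kb of the forward strand at chr18:63752935-63805376.

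The following promoter stretches are shown because the chromosome 18 members differ in whether they hold a short letter pattern there. The pattern, TGANTCA (N is any base), is a looser form of the motif read by the AP-1 factors of the JUN and FOS families. In that motif the middle base is C or G, so lines below with TGAATCA or TGATTCA lie outside it. The pattern reads the same on both strands and was chosen after the values were seen. RefSeq windows of GRCh38.p14, from 250 bases before to 50 after each start site, were searched, and 15 windows matched the 10 members. The pattern occurred in 6 of these 15 windows, all on chromosome 18, against 7.71% of all 35116 windows. Since the pattern and the genes were both chosen with values in view, nothing is read from these shares. Each line below reads 5′ to 3′ on the forward strand with the pattern in capitals, and stretches that touch an annotated exon are limited to 30 bases.
SERPINB5, 146 bases before the start at 63476958, chr18:63476801-63476830: taacttcagccTGAATCAtttctttcaatt
SERPINB13, 87 bases before the start at 63587343, chr18:63587226-63587292: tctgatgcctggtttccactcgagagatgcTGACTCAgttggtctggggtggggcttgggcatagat
SERPINB7, 154 bases before the start at 63775418, chr18:63775234-63775300: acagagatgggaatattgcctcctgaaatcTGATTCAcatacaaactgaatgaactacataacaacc
SERPINB7, 39 bases before the start at 63775418, chr18:63775368-63775397: gtgctgtgctcTGAGTCAtagggaagccat
SERPINB7, 206 bases before the start at 63777781, chr18:63777545-63777611: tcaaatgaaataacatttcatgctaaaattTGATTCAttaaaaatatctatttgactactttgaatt
SERPINB7, 45 bases before the start at 63777781, chr18:63777706-63777772: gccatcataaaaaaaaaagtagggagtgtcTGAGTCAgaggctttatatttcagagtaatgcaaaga
SERPINB2, 102 bases before the start at 63887705, chr18:63887573-63887639: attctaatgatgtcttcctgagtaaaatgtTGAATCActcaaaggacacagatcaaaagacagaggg
SERPINB8, 185 bases before the start at 63970081, chr18:63969885-63969914: ggagtcaaacgTGAATCAacggtgaaaaaa
SERPINB8, 28 bases before the start at 63970081, chr18:63970042-63970071: tcgaacggttcTGAGTCAtctgccggaagc
SERPINB7 held a pair of matches, TGATTCA and TGAGTCA, before each of its downstream starts and 0 in the window of its first start at 63753057. SERPINB3 and SERPINB4, whose windows matched at 98.7% of 300 positions, held 0 matches, and so did the windows of SERPINB1, SERPINB6 and SERPINB9. A match is a run of letters and not a measured binding site, and counts per gene do not tell which start was used. The pattern also stood in windows of SERPINB2 and SERPINB8, whose transcripts did not pass the test below.

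MSLN was reduced in every shMSLN sample. It stood at 231, 226 and 227 CPM (read counts scaled to a common library size with TMM factors) in shNC and at 37.1, 36.2 and 35.4 CPM in shMSLN, which left 15.9% of the control level (edgeR quasi-likelihood test, adjusted p = 3.97e-15). In bulk RNA of this kind, fewer cells that express a gene and less RNA per cell cannot be told apart. Library totals lay between 17507837 and 18512135 estimated counts. At this depth a transcript at 1 CPM rests on fewer than 20 reads, and intervals below cover the spread among samples and counting error together. In the shNC samples and shMSLN replicate 1, between 3.36% and 7.02% of genes above 100 reads had whole-number counts, whereas in shMSLN replicates 2 and 3 the shares were 47.7% and 47.7%. The columns thus differ in how they were written, in a way that the sources used here do not explain, and values for shMSLN replicate 1 alone, a single sample and so without a test, are given for SERPINB7, SERPINB13 and SERPINB5.

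The sample labels call the cells breast squamous cell carcinoma cells, and this squamous label was checked against marker genes. KRT5 averaged 2228 TPM (a level scaled for transcript length and depth) in shNC. KRT17, TP63, SFN and KRT6A averaged 288, 186, 177 and 138 TPM in shNC. KRT16, KRT14 and DSG3 averaged only 5.77, 4.78 and 3.18 TPM there, and KRT6B averaged 0.07 TPM. The summed level of 9 basal and squamous markers was 2897 to 3172 TPM in shNC and 2464 to 2524 TPM in shMSLN. Most of it was KRT5, which averaged 1759 TPM in shMSLN. Of the 8 tested, 2 were higher and 5 lower, beside 16.6% higher and 18% lower of all genes. Nothing is read from a list of this size. KRT6A, a keratin of stressed squamous epithelium, was lowered most (log2 fold change -1.04, SE 0.087, edgeR adjusted p = 4.12e-07). DSG3 (0.84) and KRT17 (0.16) were the 2 higher genes on the log2 scale. The defining markers of other cell types were low, with leukocyte markers (4 genes, PTPRC among them) summing to 8.0 to 8.90 TPM in shNC and 9.86 to 11.3 TPM in shMSLN. Fibroblast markers summed to 11.5 to 12.3 and 12.4 to 13.1 TPM, nearly all of it COL1A1, and endothelial markers to 2.39 to 2.83 and 2.46 to 2.86 TPM. In every sample 1 of 4 leukocyte, 3 of 4 fibroblast and 2 of 3 endothelial markers were under 1 TPM, and 0 were at 0 throughout. The part of these differences in the serpin values was not tested.

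At baseline the family was led by SERPINB5. In TPM, SERPINB5 averaged 302 ± 4.35 (SD, n = 3) in shNC, followed by SERPINB6 at 88.7 ± 2.86 and SERPINB1 at 52.6 ± 1.41. SERPINB8 (15.5), SERPINB13 (13.4), SERPINB2 (6.96), SERPINB9 (4.58) and SERPINB7 (2.82 TPM) followed, and the samples of neighbours in this order did not overlap. SERPINB4 and SERPINB3 came last at 1.23 and 1.23 TPM, and their samples overlapped. In shMSLN the leading 3 genes kept their order. SERPINB13 (19.6 TPM) stood above SERPINB8 (14.7), and SERPINB7 (12.3) stood above SERPINB2 (7.43) and SERPINB9 (5.15), again without overlap between neighbours, while SERPINB3 and SERPINB4 again came last with overlap. The members' summed TPM was 483 to 498 in shNC and 535 to 546 in shMSLN. SERPINB5 held 61.6% to 62.0% of the members' summed TPM in shNC and 62.1% to 62.5% in shMSLN, so the make-up of the family by amount was ruled by 1 gene in both groups. SERPINB7 held 0.522% to 0.646% of the sum in shNC and 2.05% to 2.46% in shMSLN.

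**Figure D1:**
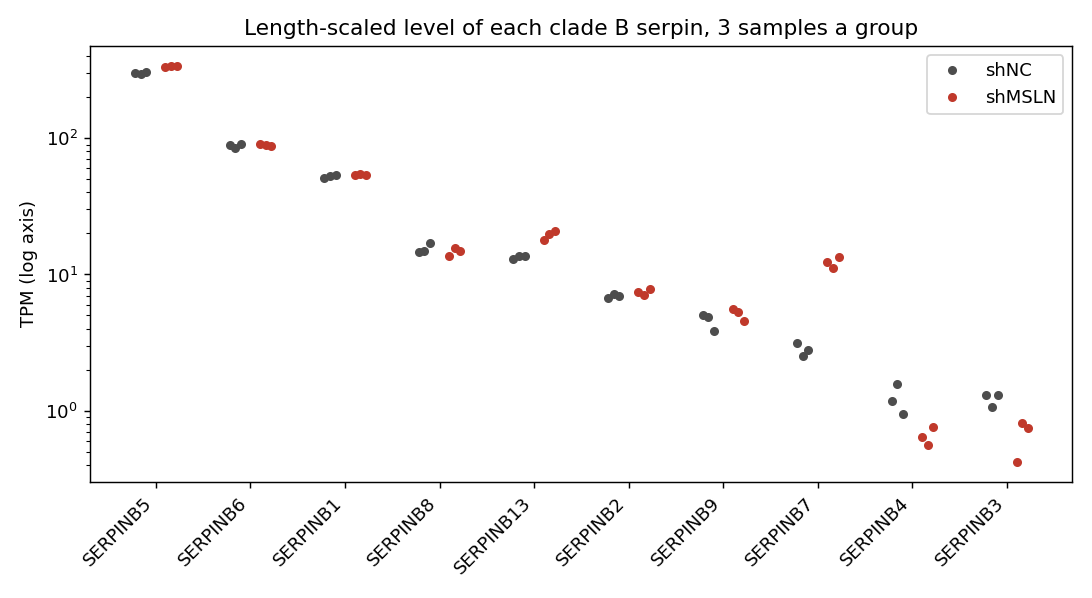
Level of each clade B serpin in TPM on a log axis, with 3 shNC samples (grey) and 3 shMSLN samples (red) per gene, ordered by the shNC mean. SERPINB5 stands highest at 298 to 341 TPM and SERPINB3 and SERPINB4 lowest, and SERPINB7 moves from 2.52 to 3.15 TPM in shNC to 11.2 to 13.4 TPM in shMSLN.

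Between the groups, of the 9 members that were not picked for their change, 2 were higher in shMSLN (SERPINB13 and SERPINB5), 2 were lower (SERPINB3 and SERPINB4) and 5 did not pass the edgeR test at an adjusted p below 0.05. The 2 lower genes entered the test through shNC, the group in which they were higher, and their calls are not taken as settled. The lower count was 0 under 12 of 15 alternatives, among them leaving out any 1 sample, the replicate block and DESeq2. Those 12 also hold shMSLN replicate 1 alone, a single sample from which no call is read. With SERPINB7, which the rule placed among the higher genes, the counts over all 10 were 3 and 2. Of all 14552 genes tested, 34.6% passed, 16.6% as higher and 18% as lower, and nothing is read from the members' count beside these shares. The median log2 fold change was 0.04 over the 10 members and 0.02 without SERPINB7, against 0.00 over all tested genes.

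**Figure D2:**
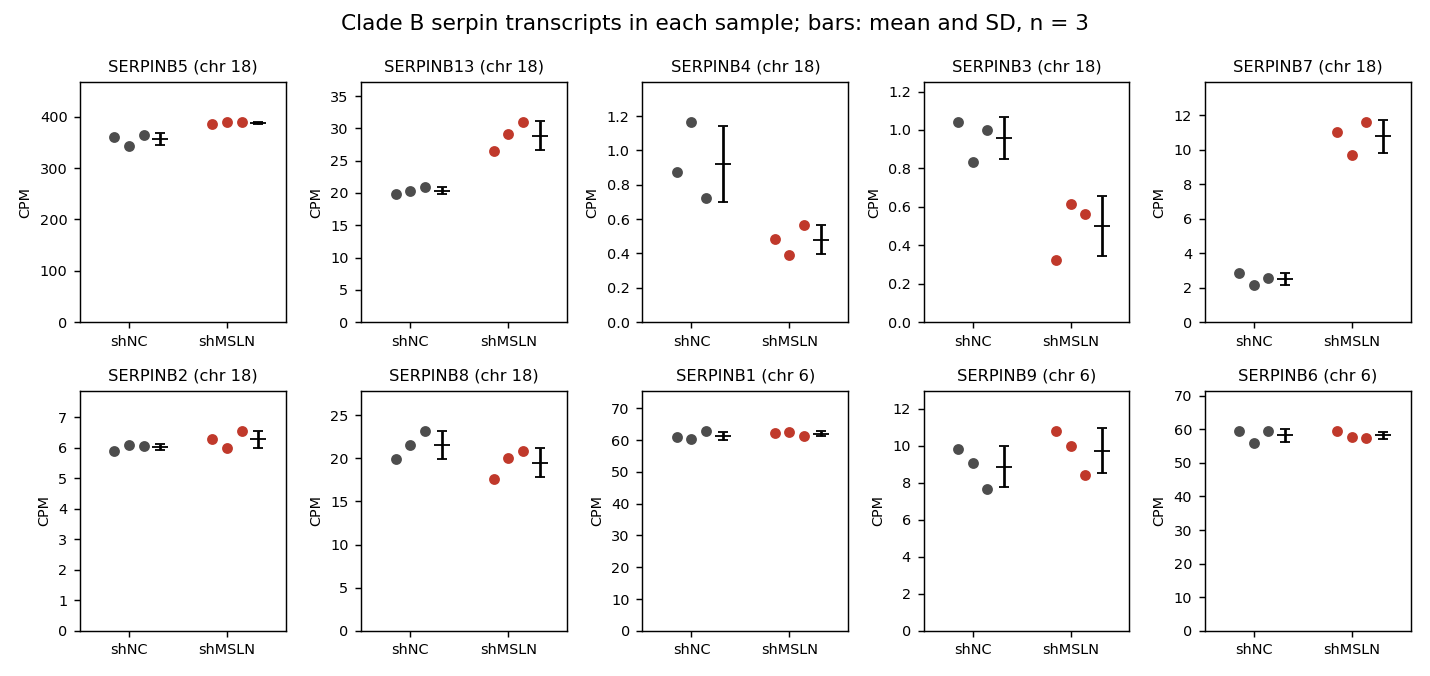
CPM of each clade B serpin in every sample, each panel with its own axis from 0, points for samples and bars for the mean and SD of 3 samples. Groups do not overlap for SERPINB5, SERPINB13, SERPINB4 and SERPINB3, nor for SERPINB7, which was picked for its rise. They overlap for the other 5 genes. How often groups separate among all genes was not counted, so nothing is read from this.

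SERPINB7, or megsin, is a serpin of kidney mesangial cells and of upper epidermis, and its loss in people causes a palmoplantar keratosis. It was measured at 2.85, 2.16 and 2.56 CPM in shNC and at 11.02, 9.70 and 11.58 CPM in shMSLN, resting on 39 to 52 reads in shNC and 173 to 205 in shMSLN. All 3 shMSLN samples stood far above all 3 controls, and the fitted ratio was 4.26 (log2 fold change 2.09, SE 0.14). Among 13762 tested genes with a mean of at least 1 CPM it ranked 5 from the most raised. Because it was picked for this rise, no test is attached to it. With shMSLN replicate 1 alone, the log2 fold change was 2.13, and over the 6 settings that each left out 1 sample it lay between 1.99 and 2.19. No stretch of 100 bases of its transcript was found in another gene of the annotation, so its reads are not shared with a paralog at that length.

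The 5 genes with the profile nearest to that of SERPINB7 over the 6 samples, by Euclidean distance between centred log2 CPM among 13746 genes, were LIMS4, SLITRK3, PDZK1, CYP2W1 and EGR1. Their distances were 0.250, 0.280, 0.438, 0.510 and 0.538. SLITRK3, a neuronal membrane protein, went from a mean of 2.74 CPM to 10.9 CPM, and PDZK1, a scaffold protein, from 8.76 to 29.9 CPM. CYP2W1, a cytochrome P450, went from 3.48 to 13.02 CPM and EGR1, an immediate early transcription factor, from 15.3 to 54.5 CPM. LIMS4 went from 0.424 to 1.98 CPM and has a near-identical copy, LIMS3, so its reads may be split between them. These are the genes of like rise, as the measure asks for, and the same samples chose them.

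SERPINB13, or headpin, is an inhibitor of cathepsin L-type cysteine proteases in keratinocytes, and its gene lies at chr18:63586989-63604639. It was measured at 19.9, 20.2 and 21.0 CPM in shNC and at 26.6, 29.2 and 30.9 CPM in shMSLN. All 3 shMSLN samples stood above all 3 controls, a rise of 41.7% (log2 fold change 0.50, SE 0.069, edgeR adjusted p = 5.92e-05). The lowest shMSLN value was that of replicate 1, and with that sample alone against shNC the log2 fold change was 0.38. Its own reads were unshared at 100 bases, and the gene lies 110.2 kb from SERPINB5 and on the same strand as SERPINB7.

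SERPINB5, or maspin, does not inhibit proteases in the usual way and is known as a tumour suppressor of the mammary gland that marks basal epithelium. Its gene lies at chr18:63476761-63505085. It was measured at 361, 343 and 365 CPM in shNC and at 385, 389 and 389 CPM in shMSLN. The groups did not overlap, and the rise was small, 8.81% (log2 fold change 0.12, SE 0.036, 95% interval 0.05 to 0.20, edgeR adjusted p = 0.0158). With shMSLN replicate 1 alone against shNC the log2 fold change was 0.11. Without shMSLN replicate 2 the adjusted p of edgeR was 0.0709 and without shMSLN replicate 3 it was 0.0639, with log2 fold changes of 0.12 and 0.12. SERPINB5, the most abundant member, thus differed by 8.81% of its control level between the groups and SERPINB7, one of the least abundant in shNC, by 326%.

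SERPINB3 and SERPINB4 are the squamous cell carcinoma antigens, of which SERPINB3 inhibits cysteine cathepsins and SERPINB4 inhibits serine proteases such as cathepsin G. They lie on the reverse strand at chr18:63655197-63661963 and chr18:63637259-63644298. SERPINB3 was measured at 1.04, 0.831 and 1.002 CPM in shNC and at 0.323, 0.617 and 0.565 CPM in shMSLN. SERPINB4 was measured at 0.876, 1.16 and 0.724 CPM in shNC and at 0.484, 0.393 and 0.565 CPM in shMSLN. Both genes reached the filter's minimum of 0.550 CPM in all 3 shNC samples but in 2 and 1 of the shMSLN samples, so they entered the test through the group in which they were higher. For both genes all shMSLN samples were below all controls, at between 5.99 and 21.4 estimated reads per sample. The log2 fold change was -0.93 for SERPINB3 (SE 0.34, edgeR adjusted p = 0.0439) and -0.93 for SERPINB4 (SE 0.34, edgeR adjusted p = 0.0469). These calls were close to the threshold and are not taken as settled. With every gene of at least 1 count kept, the adjusted p of edgeR was 0.0528 and 0.056. With the replicate number as a block the adjusted p of edgeR was 0.05 and 0.0554, with DESeq2 0.175 and 0.184, and leaving out any 1 sample raised it to between 0.0515 and 0.184.

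The pair shares most of its sequence, and its reads can be split between the genes in more than one way. Their coding sequences of 1170 bases differ at 56 positions (95.2% identity), while the next most alike pair among the members, SERPINB8 and SERPINB9, matched at 73.2% of positions. Of the 100-base stretches of SERPINB3, 3.40% were found unchanged in SERPINB4. The estimated counts were fractions, such as 18.69 for SERPINB3 and 16.31 for SERPINB4 in shNC replicate 1. Their sums were whole, at 35, 36 and 31 in shNC and 15, 18 and 20 in shMSLN. Some reads were thus shared out between the genes, and their calls are not separate measurements. The 120 coding bases with the most differences are printed here because reads from this stretch can tell the genes apart. They are bases 961 to 1080 of the coding sequence, in the last coding exon, which encodes the reactive loop, and they read 5′ to 3′ on the reverse strand (GRCh38) with the 17 differing bases in capitals.
SERPINB3, chr18:63655750-63655869: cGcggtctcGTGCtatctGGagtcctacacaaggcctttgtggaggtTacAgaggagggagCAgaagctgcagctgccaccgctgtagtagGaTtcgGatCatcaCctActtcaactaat
SERPINB4, chr18:63637812-63637931: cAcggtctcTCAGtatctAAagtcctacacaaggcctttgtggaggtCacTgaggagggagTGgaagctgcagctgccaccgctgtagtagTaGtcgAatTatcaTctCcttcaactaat
When the counts of both genes were summed before the fit, the pair stood at 1.92, 2.00 and 1.73 CPM in shNC and at 0.806, 1.01 and 1.13 CPM in shMSLN, above the filter's minimum in all 6. The groups did not overlap and 52.3% of the control level was left (log2 fold change -0.93, SE 0.24, edgeR adjusted p = 0.00739). Over 13 other settings, chosen after the single-gene values were seen, the adjusted p of the sum lay between 0.00402 and 0.0399, with log2 fold changes from -1.04 to -0.81. The sum stayed past the threshold under settings in which the call of either gene alone was lost. It uses the same reads as the single genes, so it is a description and does not settle their calls. SERPINB11, which lies across SERPINB3 on the other strand, is not analysed here, and the counting is not stated to use strand.

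**Figure D3:**
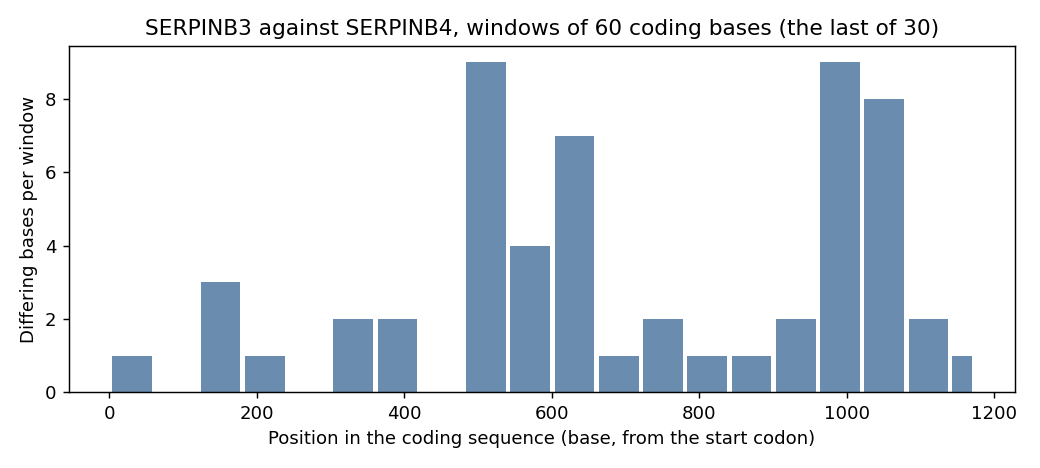
Number of differing bases between the SERPINB3 and SERPINB4 coding sequences in successive windows of 60 bases (the last of 30), by position from the start codon. The differences gather in the stretches of bases 481 to 660 and 961 to 1080, and 3 windows hold none.

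The other 5 members did not pass the test. SERPINB2, or plasminogen activator inhibitor type 2, inhibits urokinase and tissue plasminogen activator. It was measured at 5.91, 6.10 and 6.07 CPM in shNC and at 6.29, 6.001 and 6.55 CPM in shMSLN, with overlap (log2 fold change 0.06, 95% interval -0.19 to 0.31, edgeR adjusted p = 0.727). Of its 100-base stretches, 21.9% were also found in transcripts of SERPINB10, which overlaps it, so part of its reads may be shared. SERPINB8, an inhibitor of the processing protease furin, was measured at 19.9, 21.5 and 23.2 CPM in shNC and at 17.6, 20.02 and 20.8 CPM in shMSLN. The groups overlapped (log2 fold change -0.14, 95% interval -0.32 to 0.03, edgeR adjusted p = 0.187), and 8.08% of its 100-base stretches were shared with HMSD. An antisense RNA, AC009802.1, crosses the start of SERPINB8, and without strand its reads cannot be told apart from those of the serpin.

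The members of the chromosome 6 cluster guard against leukocyte proteases. SERPINB1, an inhibitor of neutrophil elastase and cathepsin G, was measured at 60.9, 60.4 and 62.8 CPM in shNC and at 62.3, 62.6 and 61.2 CPM in shMSLN. SERPINB6, an inhibitor of cathepsin G and thrombin, was measured at 59.3, 56.0 and 59.4 CPM in shNC and at 59.5, 57.6 and 57.4 CPM in shMSLN. Both had narrow intervals around no change, -0.08 to 0.11 for the log2 fold change of SERPINB1 (edgeR adjusted p = 0.816) and -0.10 to 0.10 for SERPINB6 (edgeR adjusted p = 0.98). SERPINB9, which protects cells from granzyme B, was measured at 9.85, 9.09 and 7.68 CPM in shNC and at 10.8, 9.98 and 8.42 CPM in shMSLN. Its groups overlapped and its interval was wider (log2 fold change 0.13, 95% interval -0.12 to 0.39, edgeR adjusted p = 0.413).

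**Figure D4:**
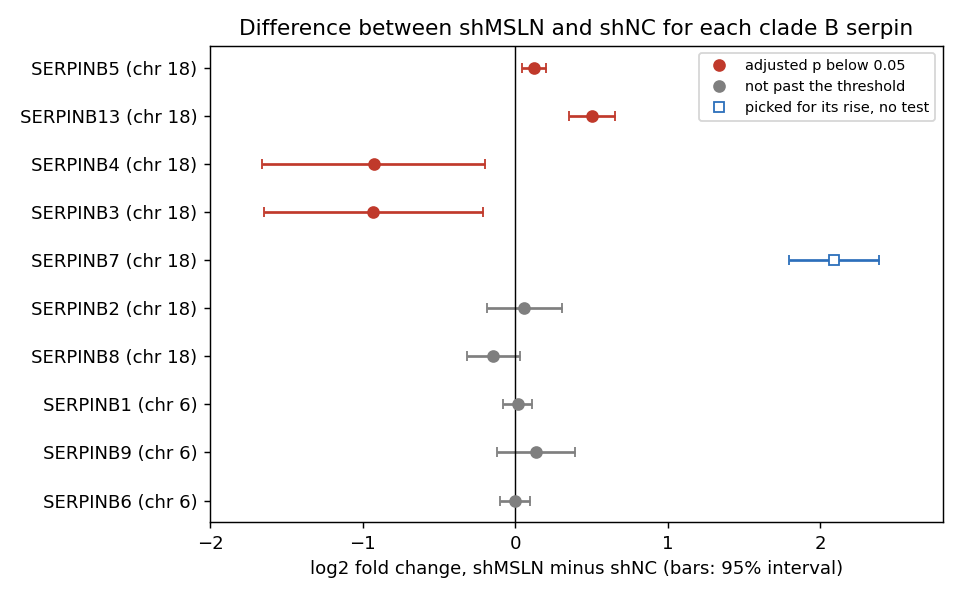
Log2 fold change of each clade B serpin (shMSLN minus shNC) with its 95% interval, in chromosome order. SERPINB5 and SERPINB13 lie above 0 and SERPINB3 and SERPINB4 below it (red). The 5 grey genes have intervals across 0, and SERPINB7 (open square, 2.09) was picked for its rise and carries no test. SERPINB3 and SERPINB4 passed the filter on low counts through shNC, where they were higher, and their calls are not taken as settled.

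Along chromosome 18, neighbouring members had values of both signs. SERPINB13 rose by 0.50 on the log2 scale, SERPINB4 and SERPINB3 were lower by the amounts given above, and SERPINB7 was higher, all within 110.2 to 276.2 kb of the left end of SERPINB5. SERPINB12, between SERPINB5 and SERPINB13, was at 0.557 to 0.776 CPM in shNC and 0.484 to 0.960 CPM in shMSLN (edgeR adjusted p = 0.82), and SERPINB10, at 7.50 to 13.02 estimated reads, was not tested. The 3 nearest tested genes outside the cluster on each side were also counted, beside the 16.6% higher and 18% lower of all genes, as a description only. No limit was set on the distance of these genes, so they need not lie close to a cluster. Of these 6 genes, BCL2 (log2 fold change 0.72), CDH7 (0.49), CDH19 (0.83) and DSEL (0.60, with overlap between the groups) were higher and 1 was lower, with a median of 0.55. Around the chromosome 6 cluster, 0 of 6 were higher and 3 were lower (GMDS -0.30, NQO2 -0.28 and RIPK1 -0.17), with a median of -0.10.

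**Figure D5:**
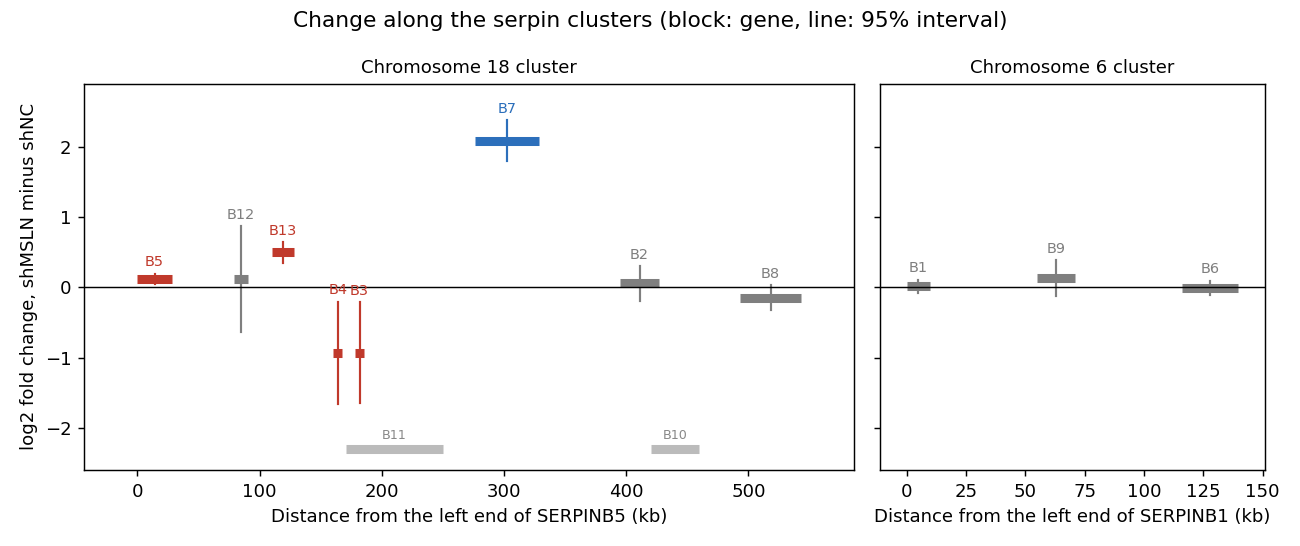
Log2 fold change against distance along the chromosome 18 and chromosome 6 serpin clusters (kb from the left end of SERPINB5 or SERPINB1), each gene drawn as a block of its length with a 95% interval. SERPINB7 (blue) stands alone above 2, SERPINB3 and SERPINB4 lie near -0.93, and SERPINB10 and SERPINB11 (light blocks at the foot) have no tested value, while SERPINB12 is shown though it is not a member.

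The proteases that these serpins are known to bind were counted as a list. Of 17 genes, 12 were tested, with 2 higher and 5 lower and a median log2 fold change of -0.15. Over all tested genes, 16.6% were higher and 18% lower, and nothing is read from a list of this size. CTSV, a cathepsin L-type protease of squamous epithelium, rose (log2 fold change 0.82, SE 0.048, edgeR adjusted p = 1.3e-08), as did CTSH (0.27). CTSL, at -0.05 (edgeR adjusted p = 0.468), and CTSK, at 0.37 (edgeR adjusted p = 0.0753), did not pass. The urokinase gene PLAU fell by 0.62 and that of tissue plasminogen activator, PLAT, fell by 0.35 on the log2 scale. FURIN fell by 0.24, CTSS by 0.42 and the kallikrein gene KLK8 by 0.51 on the log2 scale.

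Other inhibitor families were counted in the same way, and against the shares over all genes given above (16.6% higher, 18% lower) nothing is read from lists of this size. Of the serpins of other clades, 8 of 22 were tested, with 2 higher and 2 lower. SERPINF1, the antiangiogenic factor PEDF, rose from 12.8 to 27.8 CPM (log2 fold change 1.11, edgeR adjusted p = 1.13e-07), and SERPINH1, a collagen chaperone, rose by 0.33 on the log2 scale. SERPINE2, an inhibitor of thrombin and urokinase, fell by 0.98 on the log2 scale. Of 10 other epithelial protease inhibitors, 8 were tested, with CST6 (0.40) and SPINT2 (0.24) higher and SLPI (-0.28) and CSTB (-0.15) lower on the log2 scale, and a median of 0.01. Among terminal squamous differentiation genes, 5 of 10 were tested, and IVL (0.36) was higher, KRT1 (-1.20, from a mean of 1.07 to 0.461 CPM) was lower and 3 did not pass. KRT1 stood at 0.484, 0.561 and 0.339 CPM in shMSLN, against a filter minimum of 0.550 CPM. It thus entered the test through shNC, where it was higher. Its call rests on 6 to 24 reads per sample and is not taken as settled.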

How the data were processed

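RNA-Seq of 3 shNC and 3 shMSLN samples was analysed from 1 table of the whole series. The authors deposited an estimated count and a TPM value per gene and sample. The deposited estimated counts carry no scaling for depth, whereas the deposited TPM values are scaled for length and depth. Per the labels, mRNA was enriched with oligo(dT), and the build named in the submitters' notes is GRCh38.p13. The quantifier is not given in the sources used here. The shMSLN columns hold missing marks for 695 to 1103 genes, which left 16573 genes complete over the 6 samples.

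Rounded counts entered the quasi-likelihood test of edgeR 4.0.16 (R 4.3.3, TMM, filterByExpr, glmQLFit and glmQLFTest, no covariate), with Benjamini-Hochberg adjustment over 14552 genes. On simulated counts with known changes the procedure was tested first. TPM was used for levels between genes and never for tests. Groups came from the sample titles. Same-numbered samples deviated together from their group means (correlations over 10502 genes of 0.298, 0.111 and 0.115), while shNC replicate 2 with shMSLN replicate 3 gave 0.163. The replicate numbers were taken to pair samples because each same-number value exceeded 0.1, though the last value does not follow the numbers. The main test leaves this pairing out, so the blocked value is given where it changes a call. Alternatives were RLE and upper-quartile scaling, other filters, DESeq2 1.42.0, limma-voom 3.58.1, the replicate block, each sample left out, shMSLN replicate 1 alone, missing marks as 0 counts, and SERPINB3 and SERPINB4 summed. Named genes were the members, MSLN, the other clade B genes, up to 4 of the most changed called genes of each list (any of the protease list), and the 5 profiles nearest to SERPINB7. A gene that this rule covers is not reported here. Marker genes were named after their values were seen. The members and lists were chosen with earlier results of these data known. Promoters are from RefSeq and positions from GENCODE 29, which need not be the authors' annotation. FPKM columns were not used.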

Additional observations from a re-analysis of the deposited data

How the results depend on the processing

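The count of members higher in shMSLN, SERPINB7 among them, was 3 under 12 of 15 alternatives. It was 2, through the loss of SERPINB5, without shMSLN replicate 2 and without shMSLN replicate 3 (2 to 3 when 1 sample was left out). In those settings 25.2% and 25.6% of all genes passed in either direction, against 34.6% in the main test. The other alternative, shMSLN replicate 1 alone, leaves a single sample in a group. Its fit assumes that this sample varies like the shNC samples, so no call is read from it.
The count of members lower in shMSLN was 2 with RLE scaling, limma-voom and missing marks read as 0 counts. It was 0 with upper-quartile scaling, 0 with every gene of at least 1 count and 0 with at least 10 counts in every sample. It was 0 with DESeq2, 0 with the replicate block (paired by replicate number) and 0 to 0 when 1 sample was left out. These are the calls of SERPINB3 and SERPINB4, which rest on 5.99 to 21.4 estimated reads per sample. The filter of at least 10 counts removed both from the test. Otherwise the causes were not tested. Upper-quartile scaling raised the median of all genes to 0.03 on the log2 scale. Over all genes, the share that passed in either direction was 34.6% in the main edgeR test. It was 34.8% with upper-quartile scaling, 29.7% with every gene of at least 1 count and 36.2% with at least 10 counts. With DESeq2 it was 26.5%, with the replicate block 39.8%, and 25.2% to 36.8% when 1 sample was left out.
The median log2 fold change of the members lay between 0.03 and 0.09 over the 15 alternatives. SERPINB13 passed under every alternative with more than 1 shMSLN sample, with log2 fold changes of 0.45 to 0.56. With shMSLN replicate 1 alone its log2 fold change was 0.38. SERPINB1, SERPINB2, SERPINB6, SERPINB8 and SERPINB9 passed under no alternative with more than 1 shMSLN sample in edgeR, DESeq2 or limma-voom. At an unadjusted p below 0.05 the main edgeR test gave 0 of these 5 as well. The replicate block changed the call of no other member. No called value changed its sign.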
